A study of Rattus norvegicus with 54 samples.

Results

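The 7 genes described here act in the uptake of fatty acids by cells and in their first metabolic step: Lpl, Gpihbp1, Angptl4, Vldlr, Cd36, Slc27a1 and Acsl1. They were taken as every probe set that the annotation of a rat expression array assigns to these symbols, which gave 10 probe sets with 1 symbol and 1 shared by Cd36l1 and Cd36, out of 15866 probe sets and 10411 symbols. Levels came from 54 arrays of male Zucker rats, with 18 arrays each from epididymal adipose tissue, liver and gastrocnemius muscle. Lean rats carried 1 copy of the fa mutation (fa/+), and untreated obese rats were fa/fa, with the leptin receptor mutation on both chromosomes in every cell. Both had normal chow without a ligand. The other 4 groups were obese fa/fa rats given pioglitazone, rosiglitazone, troglitazone or AG035029, each a ligand of the nuclear receptor PPARgamma. The first 3 are thiazolidinediones, and the labels give the fourth as a code name alone. Each group had 3 arrays in each tissue, and each array held RNA pooled from 2 rats, so the spread between arrays is that between pools. Doses, treatment times and ages are not given in the labels.

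Many fatty acids reach tissues as triglyceride in lipoproteins. Lipoprotein lipase, encoded by Lpl, releases them at the capillary wall, where the endothelial protein GPIHBP1 carries the enzyme into the capillary lumen and anchors it. ANGPTL4 inhibits the enzyme, and the VLDL receptor binds triglyceride-rich particles and assists their hydrolysis. The released fatty acids enter cells with the help of the membrane protein CD36 and of the transport protein FATP1, encoded by Slc27a1, and the acyl-CoA synthetase encoded by Acsl1 joins them to coenzyme A. PPARgamma is most abundant in fat cells, and several of these genes are known targets of PPAR receptors.

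Signals are MAS5 values, linear intensities scaled to a common mean on each array. Changes are differences on the log2(signal + 20) scale with the standard error of limma (±), and a gene was called when its Benjamini-Hochberg adjusted p over all probe sets tested in a tissue was under 0.05. A gene with several probe sets is counted by the one with the highest mean. Median signals per array lay between 190.7 and 248.4, and the median SD within groups after moderation was 0.20 for adipose tissue, 0.30 for muscle and 0.32 for liver on the log2 scale. Summed signals of 10 hepatocyte markers in liver (239600 to 405240) and of 9 muscle markers in muscle (261750 to 513410) lay above those in both other tissues on every array. Summed signals of 7 adipocyte markers ran from 38292 to 59153 in adipose tissue, from 6734 to 38971 in muscle and from 494 to 1413 in liver. Liver lean replicate 2 and troglitazone replicate 3 had summed muscle marker signals of 18803 and 33594, and leaving both out changed no count of called genes in liver. In whole tissue, fewer cells of a type and less RNA per cell cannot be told apart.

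In lean rats all 7 genes were called between adipose tissue and liver and between adipose tissue and muscle. Of the 7, 6 were higher in adipose tissue than in liver (all but Acsl1) and 6 were higher than in muscle (all but Vldlr). Of all probe sets, 54.4% were called between adipose tissue and liver, 56.5% between adipose tissue and muscle and 54.7% between liver and muscle, so calls between tissues are common on this array. Lpl had a mean signal of 12712 ± 2511 (SD, n = 3) in lean adipose tissue, 2957 ± 732 in muscle and 181 ± 67.6 in liver. Adipose tissue was 65.3-fold above liver (log2 6.03 ± 0.38, adjusted p = 5.32e-18) and 4.32-fold above muscle. Angptl4 followed another order, with 3850 ± 448 in lean adipose tissue, 169 ± 121 in muscle and 1299 ± 520 in liver. Adipose tissue was 24.2-fold above muscle (log2 4.60 ± 0.40, adjusted p = 2.07e-13).

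Cd36 was 8.08-fold higher in lean adipose tissue than in liver and 3.88-fold higher than in muscle, and muscle was 2.08-fold above liver (adjusted p = 0.0147). Without lean muscle replicate 1 or lean liver replicate 2, that last difference was not called. Gpihbp1 and Slc27a1 were higher in adipose tissue than in liver by 2.75 ± 0.34 and 2.26 ± 0.21 in log2. Between lean liver and lean muscle neither was called, with a difference of -0.46 (95% interval -1.14 to 0.22) for Gpihbp1 and 0.28 (-0.15 to 0.71) for Slc27a1. The remaining genes had their highest lean level elsewhere. Vldlr was highest in muscle, at 2017 ± 381 against 536 ± 109 in adipose tissue and 41.7 ± 3.23 in liver, and adipose tissue lay 1.87 ± 0.30 below muscle in log2. Acsl1 was highest in liver, at 13798 ± 939 against 8393 ± 1045 in adipose tissue and 3069 ± 339 in muscle. Its difference between adipose tissue and liver (-0.72 ± 0.18, adjusted p = 0.000741) depended on the scaling and was 0.32 in the other direction, with no call, after quantile normalization of all arrays together.

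**Figure D1:**
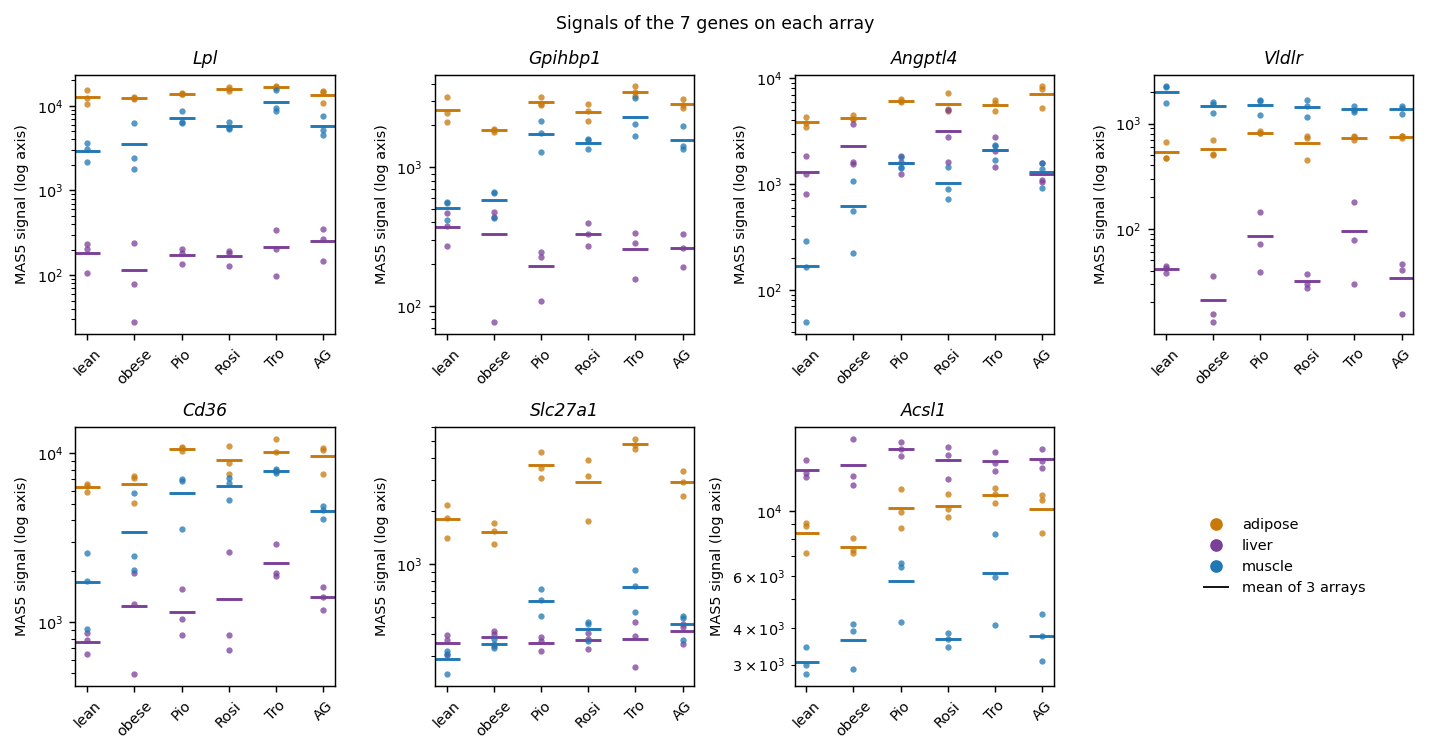
MAS5 signals (log axis) of the 7 genes on each of the 54 arrays by condition, with points for arrays, bars for means of 3 arrays and a colour for each tissue; Pio, Rosi, Tro and AG are the 4 ligands. Lpl in liver stays between 28 and 349.9 while the lowest adipose array is at 10422, and the muscle signals of Gpihbp1 separate into untreated (419.4 to 658.6) and ligand arrays (1282 to 3147).

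In adipose tissue, obesity alone called none of the 7 genes, where 6.02% of all probe sets tested were called between untreated obese and lean rats. The change nearest the threshold was in Gpihbp1, the endothelial anchor of lipoprotein lipase. Its signals were 3218, 2469 and 2101 in lean rats and 1842, 1887 and 1802 in untreated obese rats. All obese arrays were below all lean arrays, and the change was -0.47 ± 0.14 in log2 (adjusted p = 0.0502). It was called under several other settings, among them pseudocounts of 5 and 80 and quantile normalization, so it lies at the edge of the test. Lpl (-0.02 ± 0.13), Cd36 (0.04 ± 0.18) and Vldlr (0.09 ± 0.17) had overlapping arrays, as did Angptl4 (0.14 ± 0.16), Acsl1 (-0.15 ± 0.13) and Slc27a1 (-0.23 ± 0.22). Their 95% intervals together ran from -0.70 to 0.49. The probe set shared by Cd36l1 and Cd36 did not overlap, at 10787 to 11330 in obese and 9651 to 10005 in lean rats. Summed endothelial marker signals were lower in obese adipose tissue, at 7739 to 7984 against 9318 to 11682 in lean rats. None of the 10 endothelial markers tested was called, with a median change of -0.40, against -0.02 for all probe sets. Summed macrophage marker signals were higher, at 36119 to 36711 against 18925 to 21843. Of the 10 macrophage markers tested 6 were called higher, where 3.16% of all probe sets were. The part of either cell type in these values was not tested.

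With the ligands, 5 of the 7 genes rose in adipose tissue of obese rats when the 4 ligand groups were averaged: Slc27a1, Gpihbp1, Cd36, Angptl4 and Acsl1. The share of all probe sets called higher in that comparison was 9.01%. In each of the 5, all 12 ligand arrays lay above all 3 untreated obese arrays, as they did in 4.91% of all probe sets tested. The median change of the 7 genes was 0.52 in log2, against -0.05 for all probe sets tested. Lpl and Vldlr had smaller values and did not pass the test.

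Among the genes that act at the capillary wall, Gpihbp1 had the largest value. Its signals were 2810, 3219 and 2869 with pioglitazone and 2546, 2162 and 2835 with rosiglitazone. They were 3237, 3467 and 3827 with troglitazone and 2673, 2810 and 3078 with AG035029. All lay above the 1887 of the highest untreated obese array, and the ligand mean was 0.66 ± 0.11 above untreated obese rats in log2, or 1.58-fold (adjusted p = 0.000267). Against lean rats the difference of the ligand mean was 0.20 ± 0.11 and was not called. Summed endothelial marker signals ran from 5711 to 8443 on the 12 ligand arrays and from 7739 to 7984 in untreated obese rats. Of the 10 endothelial markers tested 1 rose and 2 fell with the ligand mean, where 9.01% of all probe sets rose and 11.6% fell.

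Lpl, the enzyme itself, had signals of 12751, 12121 and 12238 in untreated obese adipose tissue. With the ligands the lowest, median and highest of 12 signals were 10906, 14907 and 16978, and 11 of them lay above the highest obese array. The ligand mean change of 0.26 ± 0.10 (adjusted p = 0.0751) was not called. It passed the threshold in 5 of 30 other settings: array weights, median centring, the fit of only the arrays compared, without AG035029 replicate 1, which held the lowest ligand signal, and without lean replicate 1. After quantile normalization it was 0.06. Angptl4, the inhibitor of the enzyme, rose. Its signals were 4514, 4117 and 4077 in untreated obese rats, and the ligand arrays had a lowest, median and highest signal of 4901, 6038 and 8366. No array overlapped, and the change was 0.52 ± 0.13, or 1.43-fold (adjusted p = 0.00818). Vldlr had signals of 504, 518 and 690 in untreated obese rats and of 453 to 842 on the ligand arrays, and its change of 0.36 ± 0.14 (adjusted p = 0.0703) was not called. It was called without rosiglitazone replicate 2, which held the 453, without obese replicate 3, with array weights and after quantile normalization.

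Among the genes of the cell membrane and of activation, Slc27a1 had the largest value of the 7 for the ligand mean. Its signals were 1544, 1302 and 1708 in untreated obese adipose tissue and 2173, 1817 and 1416 in lean tissue, and these groups overlapped. With pioglitazone they were 3522, 4307 and 3069, and with rosiglitazone 3177, 1766 and 3880. With troglitazone they were 4505, 5162 and 4775, and with AG035029 2438, 2910 and 3393. Rosiglitazone replicate 2, at 1766, lay close to the untreated arrays and apart from the other 11 ligand arrays. The ligand mean was 2.26-fold above untreated obese rats (log2 1.18 ± 0.18, adjusted p = 0.000137) and 1.93-fold above lean rats.

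The promoter windows of these genes were searched for a nuclear receptor motif, since several members moved together. RefSeq windows from 250 bases before to 50 after the transcription start (build GRCr8) were at hand for 5 of the 7 genes: Cd36, Angptl4, Vldlr, Slc27a1 and Acsl1, but not for Lpl and Gpihbp1. The hexamer AGGTCA, the core that PPAR and retinoid X receptors bind in pairs, was searched on both strands, as was a direct repeat of AGGNCA with 1 base between the copies. The Slc27a1 window held 1 hexamer, on the minus strand, starting 242 bases before the start, and the other 4 windows held none. The direct repeat was in none of the 5. Of 33469 rat promoter windows, 16.2% held the hexamer and 0.415% the repeat. The 2 windows shown are those of the called membrane genes, Slc27a1 (chr16:18312717-18313016, plus strand) and Cd36 (chr4:18246332-18246631, plus strand), with the hexamer as it reads on the plus strand in capitals.
Slc27a1: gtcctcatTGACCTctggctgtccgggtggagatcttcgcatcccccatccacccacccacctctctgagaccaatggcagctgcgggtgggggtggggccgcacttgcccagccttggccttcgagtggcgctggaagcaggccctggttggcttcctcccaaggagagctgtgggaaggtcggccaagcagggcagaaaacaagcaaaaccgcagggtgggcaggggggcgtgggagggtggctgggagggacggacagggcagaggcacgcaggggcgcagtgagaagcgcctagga
Cd36: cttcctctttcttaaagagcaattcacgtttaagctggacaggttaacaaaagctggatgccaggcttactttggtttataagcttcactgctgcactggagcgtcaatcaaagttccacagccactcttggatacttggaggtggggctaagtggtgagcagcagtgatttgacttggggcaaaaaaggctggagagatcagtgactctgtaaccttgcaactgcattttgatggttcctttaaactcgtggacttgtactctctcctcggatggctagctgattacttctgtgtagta
A match in these letters is not a measured binding site, and the absence of one says only that the letters are not in the window.

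Cd36, the fatty acid translocase, had signals of 5091, 7167 and 7341 in untreated obese adipose tissue and 6535, 6368 and 5930 in lean tissue. On the 12 ligand arrays the lowest, median and highest signals were 7506, 10433 and 12187. All ligand arrays were above all untreated ones, and the ligand mean was 1.51-fold above untreated obese rats (log2 0.59 ± 0.14, adjusted p = 0.00564). The call rests in part on 1 low control: without obese replicate 1 (5091) the change was 0.42 with an adjusted p of 0.0801. Acsl1, which activates the fatty acid, had signals of 7351, 8090 and 7213 in untreated obese tissue and of 8379 to 11948 on the ligand arrays. It rose by 0.47 ± 0.11 in log2, or 1.38-fold (adjusted p = 0.00407), again with no overlap on this probe set. On the other Acsl1 probe set, 11 of the 12 ligand arrays lay above the highest obese array.

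Other cell markers moved with these changes in adipose tissue. Of 10 macrophage markers, 8 fell with the ligand mean and none rose, where 11.6% of all probe sets fell and 9.01% rose. Their summed signals were 17056 to 32833 on the ligand arrays against 36119 to 36711 in untreated obese rats. Of 7 adipocyte markers, 3 rose (Aqp7, Cfd and Lipe) and 1 fell (Lep). Their summed signals were 43161 to 59153 with the ligands and 38292 to 45845 in untreated obese rats, which overlap. Summed hepatocyte marker signals were 671 to 976 in untreated obese rats and 3200 to 9918 with the ligands. Of their 2 genes tested, Alb, which encodes albumin, rose by 4.43 ± 0.29 and Serpina1 was not called. Among the hepatocyte markers not tested, Apoa1 and Fgb had signals of at most 34.2 and 6.2 on the ligand arrays. The levels of the other untested ones are not given here, so these values do not stand for the list. Summed muscle marker signals were 3980 to 5293 and 6067 to 8943, and of the 3 genes tested only the myosin gene Myh1 was called, at 0.81 ± 0.15. The part of these shifts in the changes above was not tested.

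**Figure D2:**
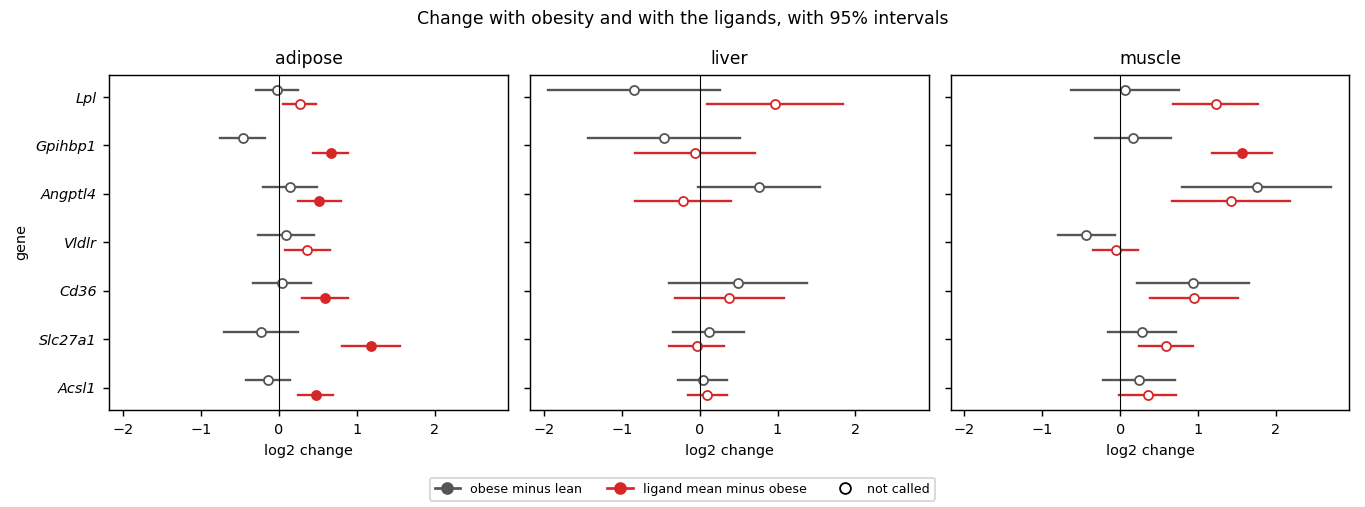
Change of each gene on the log2 scale (points) with 95% intervals (lines) for obese minus lean rats in grey and the mean of the 4 ligands minus untreated obese rats in red, in each tissue; filled points were called, and Vldlr was below the filter in liver. In adipose tissue 5 red points are filled, from 0.47 for Acsl1 to 1.18 for Slc27a1, in muscle only that of Gpihbp1 at 1.56, and no grey point is filled in any tissue.

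Taken singly in adipose tissue, pioglitazone called 5 genes higher (Slc27a1, Cd36, Gpihbp1, Angptl4 and Acsl1), where 6.98% of all probe sets were called higher. Troglitazone also called 5, with Lpl in place of Angptl4 (background 7.81% higher), and AG035029 called the same 5 as pioglitazone (6.71%). Rosiglitazone called 1, Slc27a1 (2.87%). Of these 16 calls, 8 were made under every alternative. The other 8 were all lost without obese replicate 1: Cd36 and Acsl1 with pioglitazone and AG035029, Angptl4 with pioglitazone, Cd36 and Lpl with troglitazone, and Slc27a1 with rosiglitazone. The Slc27a1 changes were 1.66 ± 0.22 with troglitazone, 1.24 ± 0.22 with pioglitazone, 0.93 ± 0.22 with AG035029 and 0.88 ± 0.22 with rosiglitazone. For Gpihbp1 they were 0.92, 0.68, 0.62 and 0.43 in the same order of ligands, each ± 0.14. Lpl rose by 0.44 ± 0.13 with troglitazone (signals 16351, 16978 and 16867, adjusted p = 0.0267). That call was lost in 9 of 30 other settings, among them quantile normalization, where the change was 0.13, and leaving out any 1 of the 3 obese or 3 troglitazone arrays. The Lpl changes with the other ligands ran from 0.11 to 0.35. Rosiglitazone gave values above 0 for all 7 genes and left 6 of them uncalled, with adjusted p from 0.0571 (Acsl1) to 0.671 (Vldlr).

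A call for one ligand and not for another does not show that they differ, and the differences themselves were tested. The F-test over the 4 ligands called none of the 7 genes in adipose tissue, where it called 0.0315% of all probe sets, and the smallest of their adjusted p was 0.421 (Slc27a1). For Slc27a1 and Gpihbp1 the widest gap lay between troglitazone and rosiglitazone. Slc27a1 was 0.78 lower with rosiglitazone than with troglitazone (95% interval -1.25 to -0.31, adjusted p = 0.225), and Gpihbp1 was 0.48 lower (-0.77 to -0.20, adjusted p = 0.217). For Acsl1 the largest difference between any pair was 0.16 in log2, between troglitazone and AG035029 (-0.12 to 0.45). AG035029 and troglitazone differed by -0.32 in Angptl4, lower with troglitazone (-0.67 to 0.02). There were 6 pairs of ligands for each gene and tissue, p-values were adjusted over all probe sets within each pair, and since doses are not stated the ligands cannot be set at matched doses.

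Against lean rats, the ligand mean in adipose tissue was higher for 5 genes: Slc27a1 by 0.95 ± 0.18, Angptl4 by 0.66 ± 0.13, Cd36 by 0.63 ± 0.14, Vldlr by 0.45 ± 0.14 and Acsl1 by 0.32 ± 0.11. The background was 14.4% of probe sets called higher. Acsl1 was not called in this comparison after quantile normalization, and neither it nor Vldlr was called without lean replicate 3, nor Vldlr without lean replicate 1.

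**Figure D3:**
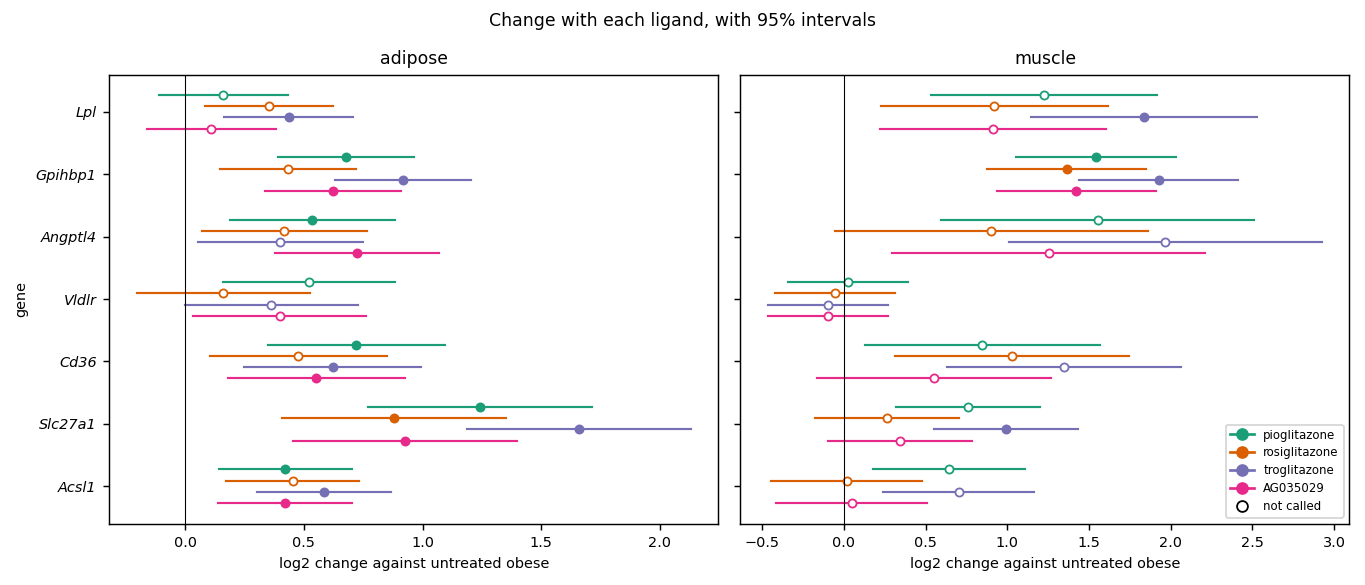
Change with each ligand against untreated obese rats on the log2 scale (points) with 95% intervals (lines) in adipose tissue and muscle; filled points were called. Slc27a1 in adipose tissue and Gpihbp1 in muscle are filled for all 4 ligands, and the troglitazone points lie farthest right for Slc27a1 (1.66 in adipose tissue) and for Gpihbp1 and Lpl in muscle (1.93 and 1.83).

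In muscle, Gpihbp1 rose to 2.96-fold of its untreated obese level with the ligand mean and was called with every ligand. Lpl and Slc27a1 were called higher with troglitazone alone. Cd36 and Angptl4 had values above 0 and were not called with any ligand, and Vldlr had values near or below 0. The background in muscle was low, with 0.221% of all probe sets called higher for the ligand mean.

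Gpihbp1 signals in muscle were 562, 419 and 548 in lean rats and 428, 659 and 654 in untreated obese rats. They were 1767, 2157 and 1282 with pioglitazone and 1565, 1345 and 1590 with rosiglitazone. With troglitazone they were 1690, 3147 and 2058, and with AG035029 1355, 1419 and 1975. The lowest ligand array, at 1282, was above the highest untreated one, at 659. The ligand mean change was 1.56 ± 0.18 in log2 (adjusted p = 0.000137). The single changes were 1.93 with troglitazone (background 0.599% of probe sets called higher), 1.54 with pioglitazone (0.2%), 1.42 with AG035029 (0.0945%) and 1.36 with rosiglitazone (0.021%), each ± 0.23. The rosiglitazone call, at an adjusted p of 0.0364, was lost in 10 of 30 other settings, among them without obese replicate 1 or 3, lean replicate 3 or any rosiglitazone array. The AG035029 call was lost in 5, among them without obese replicate 1 or AG035029 replicate 3.

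Lpl signals in untreated obese muscle were 1796, 6298 and 2400, so that obese replicate 2 stood apart from both others. In lean muscle they were 3607, 3099 and 2163. With troglitazone they were 9309, 15426 and 8730, and over all 12 ligand arrays the lowest, median and highest were 4578, 6455 and 15426. Obese replicate 2 lay inside the range of the ligand arrays, and the ligand mean change of 1.22 ± 0.26 was not called (adjusted p = 0.0596). With troglitazone alone Lpl rose by 1.83 ± 0.33, or 3.57-fold (adjusted p = 0.00962). That call was lost in the fit of only the arrays compared and without obese replicate 1, obese replicate 3 or troglitazone replicate 2.

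Angptl4 in muscle had the widest spread. Its signals were 293, 165 and 50 in lean rats, 225, 1061 and 562 in untreated obese rats and 725 to 2324 on the ligand arrays. The obese minus lean change of 1.75 ± 0.46 was not called (adjusted p = 0.394), nor was the ligand mean change of 1.42 ± 0.36 (adjusted p = 0.168). Troglitazone came nearest, at 1.97 ± 0.46 (signals 1684, 2324 and 2285, adjusted p = 0.0511). Cd36 had signals of 2568, 1742 and 912 in lean rats, 2027, 5805 and 2460 in untreated obese rats and 3553 to 8038 with the ligands. Its ligand mean change was 0.94 ± 0.27 (adjusted p = 0.261). Obese replicate 2 was again the high control in both genes.

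Leaving out that single array gave other calls. Without obese replicate 2, 4 of the 7 genes were called higher for the ligand mean: Gpihbp1 at 1.66, Lpl at 1.75 (adjusted p = 0.000431), Angptl4 at 1.92 (0.0249) and Cd36 at 1.40 (0.0157). With any other array left out, 1 or 2 genes were called. The share of all probe sets called was not taken in these fits, so these counts have no background beside them. The same array also had the highest summed adipocyte marker signal of the untreated muscle arrays, 10840 against 6734 and 8314 in the other obese arrays.

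Adipocyte markers moved with the ligands in muscle. Summed signals of the 7 markers measured were 7397 to 8055 in lean rats, 6734 to 10840 in untreated obese rats and 13873 to 38971 on the ligand arrays. Of the 5 markers tested, Fabp4 and Aqp7 rose, by 2.03 ± 0.26 and 1.71 ± 0.29, and Cfd, Slc2a4 and Plin1 did not pass the test. Of all probe sets, 0.221% rose. The median change of the 5 markers was 0.97 with the ligand mean, against -0.04 for all probe sets tested. It was 1.83 with troglitazone, 1.44 with pioglitazone, 0.51 with rosiglitazone and 0.50 with AG035029. Plin1, which coats fat droplets, overlapped between untreated obese (103 to 205) and ligand arrays (93.7 to 398), and Lep lay between 12.3 and 271 with the ligands and between 13.1 and 47.2 without. In adipose tissue, Plin1 itself lay between 872 and 1018 in untreated obese rats. The part of fat cell RNA in the muscle changes was not tested. Summed endothelial marker signals ran from 3166 to 5373 with the ligands and from 3523 to 3888 in untreated obese muscle, and none of the 9 endothelial markers tested was called.

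**Figure D4:**
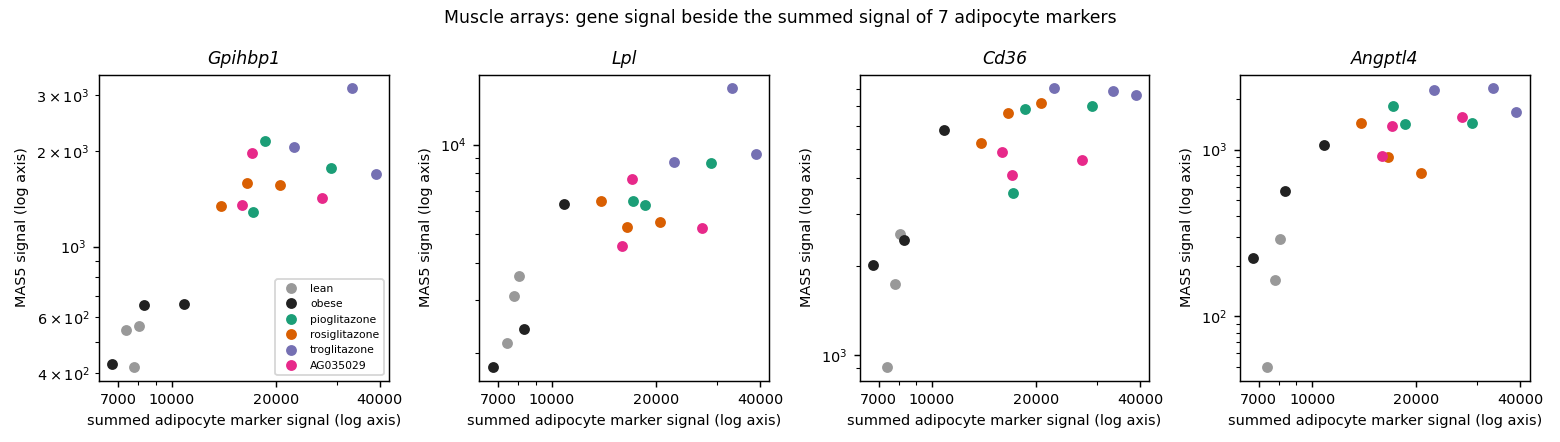
Signal of 4 genes (log axis) against the summed signal of 7 adipocyte markers (log axis) on the 18 muscle arrays, coloured by condition. The 6 untreated arrays lie at sums of 6734 to 10840 and the 12 ligand arrays at 13873 to 38971, and the obese array at 10840 has the highest untreated signal of Lpl (6298), Cd36 (5805) and Angptl4 (1061).

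For membrane transport and activation, 1 further call was made in muscle, that of Slc27a1 with troglitazone. Slc27a1 signals were 237, 323 and 310 in lean rats, 333, 353 and 374 in untreated obese rats and 366 to 926 with the ligands. It rose with troglitazone by 0.99 ± 0.21 (signals 926, 751 and 537, adjusted p = 0.0287). That call was lost without any 1 of the 3 obese arrays and without troglitazone replicate 1 or 2. Acsl1 signals were 2902, 4132 and 3912 in untreated obese muscle and 3086 to 8356 with the ligands, and the ligand mean change of 0.35 ± 0.18 was not called (adjusted p = 0.706). Its values by ligand were 0.70 and 0.64 with troglitazone and pioglitazone and 0.05 and 0.02 with AG035029 and rosiglitazone, each ± 0.22. The F-test over ligands gave it an adjusted p of 0.302 and called 0% of all probe sets in muscle. The interval of the rosiglitazone minus troglitazone difference was -1.15 to -0.22. Vldlr had changes between -0.10 and 0.03 with the 4 ligands, each ± 0.18.

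Obesity alone called none of the 7 genes in muscle, where it called 0.021% of all probe sets. Against lean muscle, however, the ligand mean was higher for 5 genes, with a background of 0.809% called higher. Angptl4 was 9.0-fold above lean muscle (log2 3.17 ± 0.36, adjusted p = 3.5e-05), Cd36 3.67-fold (1.88 ± 0.27) and Gpihbp1 3.31-fold (1.73 ± 0.18). Lpl was 2.43-fold (1.28 ± 0.26) and Slc27a1 1.83-fold (0.87 ± 0.17) above lean muscle. In all 5 genes every ligand array lay above every lean array, as in 0.945% of all probe sets tested. The Lpl call was lost without lean replicate 2 or 3 and the Slc27a1 call without lean replicate 1. Vldlr was 0.49 ± 0.14 lower and was not called (adjusted p = 0.102). This comparison holds the obese genotype and the ligand together.

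In liver none of the 6 genes tested was called in any comparison, and Vldlr lay below the filter there, with signals of 13 to 179. The shares of all probe sets called were 0.672% for obese against lean rats, 0.494% for the ligand mean against untreated obese rats and 3.18% for the ligand mean against lean rats. They were 0.021% with pioglitazone, 0.063% with rosiglitazone, 0.662% with troglitazone, 0.2% with AG035029 and 0.0105% in the F-test over ligands. Lpl signals were 78.5, 28 and 242 in untreated obese liver and 205, 105 and 233 in lean liver, which overlap. Its ligand mean change of 0.97 (95% interval 0.10 to 1.84, adjusted p = 0.402) starts from these low and scattered signals. Angptl4 had 1606, 3697 and 1563 in untreated obese liver and 1840, 804 and 1251 in lean liver, a difference of 0.77 ± 0.38. Acsl1, whose lean level was highest in liver, had differences of 0.04 ± 0.15 with obesity and 0.10 ± 0.12 with the ligand mean, with a 95% interval of -0.15 to 0.35 for the latter. A change of 1 in log2 lies outside that interval, but not outside those of Lpl or Cd36.

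One probe set went beyond this in liver. The probe set that the annotation assigns to both Cd36l1 and Cd36 had signals of 1477, 1478 and 1596 in lean liver and 3150, 4077 and 2408 in untreated obese liver. It was higher in all obese arrays, by 1.04 ± 0.20 (adjusted p = 0.0123). The probe set of Cd36 alone had 786, 645 and 863 in lean and 1290, 1952 and 493 in obese liver, a change of 0.50 ± 0.42 (adjusted p = 0.788). Its obese replicate 3 lay below all lean arrays. The changes point the same way, and the 95% interval of the second (-0.39 to 1.38) includes the first. Which gene the shared probe set reads was not settled here.

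The genes with several probe sets gave values of one direction in most comparisons. In adipose tissue with the ligand mean, both Cd36 probe sets were called higher (0.59 and 0.34), as were both for Acsl1 (0.47 and 0.56). The 3 Vldlr probe sets had 0.36, 0.43 and 0.27, none called. In muscle with troglitazone, the shared Cd36 probe set was called (1.52 ± 0.28, signals 14909, 18544 and 16618, adjusted p = 0.0119) and the other was not (1.35 ± 0.34, adjusted p = 0.0859). For Vldlr in muscle with troglitazone, the probe sets gave -0.10, -0.38 and -0.79. The last had signals of 501, 522 and 557 in untreated obese and 314, 275 and 299 in troglitazone-treated muscle, with no overlap and an adjusted p of 0.0585.

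**Figure D5:**
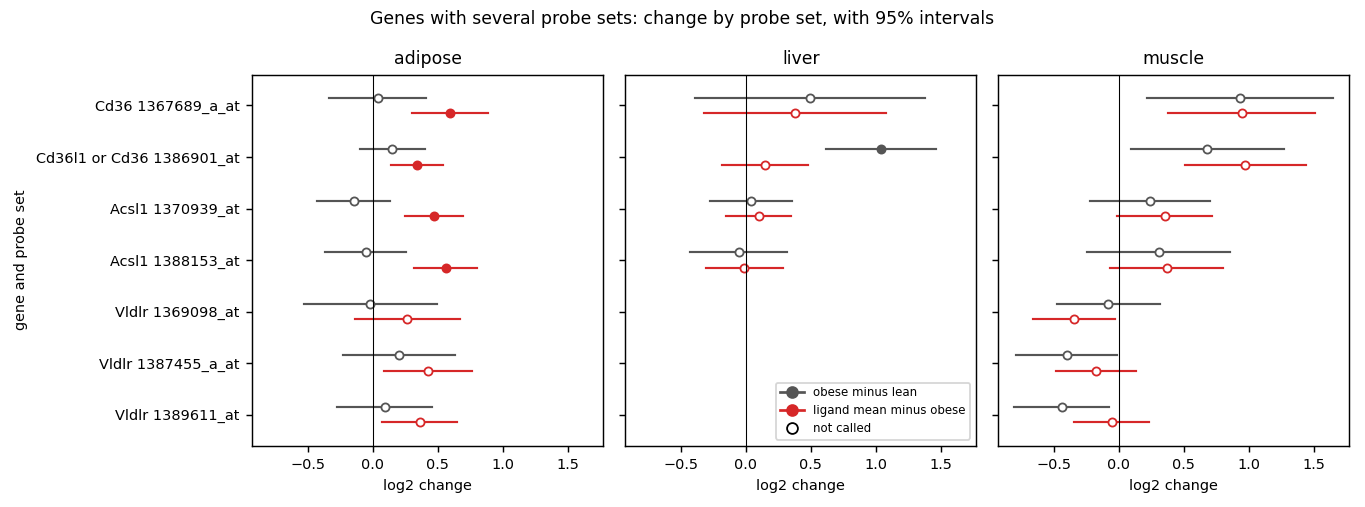
Change on the log2 scale (points) with 95% intervals (lines) for each probe set of Cd36, Acsl1 and Vldlr, with obese minus lean rats in grey and ligand mean minus untreated obese rats in red; filled points were called. The shared Cd36l1 or Cd36 probe set is the filled grey point in liver, at 1.04, and the Vldlr probe sets are at or right of 0.27 for the ligand mean in adipose tissue and left of 0 in muscle.

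Whether the ligand effect differed between tissues was tested in a fit of all 54 arrays, in which 4.93% of all probe sets passed. Among the 7 genes it passed for Slc27a1 (adjusted p = 0.00295), with changes of 1.18 in adipose tissue, 0.59 in muscle and -0.04 in liver, and for Gpihbp1 (0.0155), with 0.66, 1.56 and -0.06. For Gpihbp1 the call was lost without muscle obese replicate 1, or without liver obese replicate 2 or 3, with adjusted p of 0.0761, 0.0818 and 0.0907. Angptl4 was close (0.0546), with 0.52, 1.42 and -0.21, and passed in 13 of 63 other settings. For Lpl, Cd36, Vldlr and Acsl1 the test gave adjusted p of 0.255 to 0.718. The same test for the effect of obesity passed for none of the 7 genes, against 0.868% of all probe sets.

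Related genes were taken from 3 lists. Of the list of triglyceride and lipoprotein handling, 8 of 18 genes were tested in adipose tissue. With the ligand mean 2 fell, Sdc1 (-0.74 ± 0.12), a heparan sulfate proteoglycan that takes up lipoproteins, and Lrp1 (-0.56 ± 0.11), a receptor for remnant particles, and none rose (11.6% of all probe sets fell and 9.01% rose). The median change of the list was -0.18. In untreated obese rats Angptl8, another regulator of lipoprotein lipase, was 1.66 ± 0.30 above lean rats in adipose tissue and 1.82 ± 0.36 in liver. Of all probe sets, 3.16% rose with obesity in adipose tissue and 0.378% in liver. No other gene of that list was called with obesity in either tissue. None of the 4 list members tested in muscle was called for obesity or for the ligand mean. Of all probe sets in muscle, only 0.021% and 0.242% were called in these comparisons.

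Of the list of fatty acid transport, binding and activation, 19 of 30 genes were tested in adipose tissue. With the ligand mean 3 rose and 1 fell, against the same shares of all probe sets, with a list median of 0.18. Fabp3, the heart-type fatty acid binding protein, rose by 4.81 ± 0.23, Acot8, a peroxisomal thioesterase, by 0.86 ± 0.14 and Dbi, an acyl-CoA binding protein, by 0.72 ± 0.09. Slc27a3, a relative of Slc27a1, fell by 0.42 ± 0.10. With obesity 4 rose in adipose tissue (Fabp3, Scarb2, Fabp5 and Dbi, by 0.39 to 1.12), where 3.16% of all probe sets rose. In liver 20 were tested, and Acsl5, another acyl-CoA synthetase, rose by 1.17 ± 0.17 with obesity while Fabp7, the brain-type binding protein, fell by 2.38 ± 0.32 (0.378% of all probe sets rose and 0.294% fell). In muscle 21 were tested, and with the ligand mean Fabp4, the binding protein of fat cells and macrophages, and Fabp5, that of skin, rose by 2.03 ± 0.26 and 1.58 ± 0.18. In that comparison 0.221% of all probe sets rose.

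Of 15 receptors and regulators, 11 were tested in adipose tissue and 12 in muscle. Pparg, the target of the ligands, was 1.07 ± 0.15 lower in obese than in lean adipose tissue, and the kinase gene Prkaa1 was 0.63 ± 0.15 lower, where 2.86% of all probe sets were lower. With the ligand mean Rxrg, a dimer partner of PPARgamma, rose by 0.61 ± 0.15 and Nr1h3, which encodes LXRalpha, by 0.36 ± 0.12, while Nr1h2 fell by 0.38 ± 0.13. In that comparison 9.01% of all probe sets rose and 11.6% fell. In muscle Pparg rose by 2.01 ± 0.32 with the ligand mean, where 0.221% of all probe sets rose. No list member was called in liver with the ligand mean, where 0.494% of all probe sets were called.

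The genes whose pattern was most like that of each member were found among 6448 genes by Pearson's r over 18 group means, centred within each tissue. This is a description, and the means share control groups, arrays and RNA pools. Slc27a1 and Acsl1 were both closest to Mtarc1, a mitochondrial amidoxime reductase gene (r = 0.94 and 0.89). Cd36 was closest to Pnpla2 (0.91), which encodes the first lipase of fat droplets, followed by Mgll (0.87), the monoglyceride lipase. Angptl4 was closest to Fasn (0.94), fatty acid synthase, and Nr1h3 (0.93). Gpihbp1 was closest to Mgst1 (0.88), Aqp7 (0.87), the glycerol channel of fat cells, and Rbp4 (0.87). Lpl was closest to Tinagl1 (0.86) and Vldlr to Tsc22d4 (0.88). The Vldlr pattern includes liver, where its signals of 13 to 179 lay below the filter. Its condition means there ran from 5.33 to 6.64 in log2, against 9.10 to 9.71 in adipose tissue and 10.44 to 10.97 in muscle.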

How the data were processed

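Transcripts were measured on 54 Affymetrix Rat Expression 230A arrays, per the labels' protocols with RNA pooled from 2 rats per array. The deposited values are linear intensities, MAS5 signals that the authors computed before deposit, per the submitters' processing notes, with no version given. Their trimmed mean was the same on each array, so they were not rescaled here. The 57 control probe sets among 15923 were dropped. Symbols came from the platform annotation.

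Signals were used as log2(signal + 20). A filter on the tissue mean (40th percentile) left 9519 probe sets per tissue. Each tissue's 18 arrays were fitted with limma 3.58.1 under R 4.3.3, with empirical Bayes moderation and a mean-variance trend (12 residual degrees of freedom). Benjamini-Hochberg adjustment ran over all probe sets tested, at 0.05. Tissue differences were tested on 54 arrays jointly, with 11520 probe sets. That fit took the arrays as independent, though arrays of different tissues may share rats. Residuals of same-numbered arrays of a condition had a mean correlation of 0.0068 across tissues. With these arrays as a block, an alternative, the consensus correlation was -0.0021. The number of arrays limits the precision. All 4 ligands share 1 set of untreated obese controls.

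Every probe set of the 7 genes is given whatever its value. From the related lists, up to 4 called genes per list and comparison are named, by smallest adjusted p. The genes and lists were chosen with earlier results of these data known. Replicate numbers of different groups were not used to pair the arrays in the main fits. Residuals of same-numbered arrays had a mean correlation of 0.011 for adipose tissue, 0.0053 for muscle and -0.0036 for liver. In adipose tissue single pairs ran from -0.15 to 0.23, with 6 of 45 over 0.1. The mean alone therefore does not show that no arrays were paired.

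Alternatives were other pseudocounts, filters and scalings, no trend, array weights, a replicate block, fits of only the arrays compared, a threshold of 0.01 and each array left out. Leaving out 2 liver arrays was chosen after seeing the data. On simulated data with 200 changed probe sets, the ligand mean comparison recovered 89.9% for adipose tissue, 73.6% for muscle and 67.0% for liver at a log2 change of 1. At a change of 2 it recovered 98.9, 96.3 and 95.5%. The simulation changed 200 of 9519 probe sets, with independent normal noise. In the data that comparison called 1963 probe sets in adipose tissue, 23 in muscle and 47 in liver. The adjusted p depends on the share of probe sets changed, so these recoveries are not the power for the genes here.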

Additional observations from a re-analysis of the deposited data

Results flagged for a closer look

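The ligand effect differed between the tissues for Slc27a1 (F-test of limma, adjusted p = 0.00295), with ligand mean changes of 1.18 in adipose tissue, 0.59 in muscle and -0.04 in liver, and for Gpihbp1 (adjusted p = 0.0155), with 0.66, 1.56 and -0.06. It also differed for one of the dimmer Vldlr probe sets (adjusted p = 0.041), with differences of group means of 0.43 in adipose tissue, -0.17 in muscle and 1.18 in liver. The liver value, the largest of the 3, comes from signals of 2.7 to 12.8 in untreated obese rats and 4.3 to 80.8 with the ligands, below the filter of the liver fit. The brightest Vldlr probe set did not pass (0.255). The remaining Vldlr probe set had opposite directions with pioglitazone, with every treated array above every untreated obese array in adipose tissue (0.44) and below every one in muscle (-0.28). That difference was not tested by itself, and neither change was called. The pattern was picked out by searching the probe sets of the genes described here for opposite directions without overlap. The share of all probe sets separated in this way was not taken for pioglitazone in either tissue. The pattern therefore has no background beside it, and no conclusion is drawn from it.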

How the results depend on the processing

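Of 195 results for single genes, 59 were called, and 39 of these were called in every alternative. Of 7033 alternative values, 6833 fell on the same side of the threshold. Of 5547 signed values, 72 changed sign, 71 of them for genes called neither before nor after. The other was Acsl1 in lean adipose tissue against liver, called as lower and 0.32 after quantile normalization. Counts in liver stayed at 0 under every alternative, and those between lean tissues and of ligand mean against lean muscle stayed within 1.5 times.

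For obese against lean adipose tissue, 1 gene in place of 0 was called with array weights, a filter at the 60th percentile, averaged probe sets, pseudocounts of 5 or 80 or quantile normalization, and 0 to 1 with an array left out. For AG035029 in adipose tissue, 3 genes in place of 5 were called in the fit of only the arrays compared, without a filter, without a trend or at 0.01, and 3 to 5 with an array left out. For pioglitazone in adipose tissue it was 3 without a filter, 3 with the replicate block and 2 at 0.01, and 2 to 6 with an array left out. For troglitazone in adipose tissue it was 3 after quantile normalization or at 0.01, and 3 to 6 with an array left out. Rosiglitazone in adipose tissue, with 1, had 3 with array weights, 2 with the stricter filter and 0 in the fit of only the arrays compared, without a filter or at 0.01, and 0 to 3 with an array left out. Ligand mean against lean adipose tissue had 3 in place of 5 at 0.01, and 3 to 6 with an array left out.

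In muscle the ligand mean had 2 genes in place of 1 with array weights, median centring, the stricter filter or the replicate block, and 1 to 4 with an array left out. AG035029 had 0 in place of 1 in the fit of only the arrays compared, without a trend or at 0.01, and 0 to 2 with an array left out. Rosiglitazone had 0 without a trend, after quantile normalization, with the replicate block or at 0.01, and 0 to 2 with an array left out. Pioglitazone had 1 to 2 with an array left out. Troglitazone had 1 in place of 3 in the fit of only the arrays compared, and 1 to 5 with an array left out. The tissue difference of the ligand effect had 1 to 3 with an array left out, in place of 2. The cause of these changes was not tested, and shares over all probe sets were not taken for the alternatives. The replicate block changed no other count by over 1.5 times. With 3 arrays per group, the median 95% interval of a single comparison reached 0.34 in log2 for adipose tissue, 0.52 for muscle and 0.55 for liver on either side.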
